A study of Mus musculus with 2 samples.

Results

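The 40 genes described here encode the DNA replication machinery and the S-phase supply and control around it, without the subunits of the MCM replicative helicase. They are the genes of a fixed list whose symbol equals that of a probe in the platform annotation, 40 of 19057 genes with a named probe, and 76 of 45281 probes measure them. Expression was measured in 2 parts of the mouse lens at embryonic stage E12.5, with 1 array of lens epithelium and 1 array of lens fibers. Both samples are described as wild type and of the same age, total RNA was labelled with biotin, and the annotation is that of a 1-colour Illumina array. The sources used here give neither the strain nor the number of embryos nor the way the parts were separated. In whole-tissue RNA of this kind, fewer cells in S phase and less of a transcript per cell cannot be told apart.

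In the embryonic lens, the epithelium at the front holds dividing cells, and cells that move to its edge leave the cell cycle and elongate as fibers. Replication starts when the origin recognition complex, Cdc6 and Cdt1 load the MCM helicase onto DNA, and cyclin E with Cdk2 and a further kinase then help to switch it on with Cdc45 and GINS. DNA polymerases copy the strands on a clamp of Pcna that the RFC complex loads, and ribonucleotide reductase and thymidylate enzymes supply the nucleotides. Many of these genes are targets of the E2F transcription factors, which drive them as cells enter S phase.

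Intensities are given after quantile normalization of the deposited values, in arbitrary linear units. A floor for each array, 44.6 for epithelium and 32.1 for fibers, is the level under which 95% of 1580 reference probes fell, for genes that a lens is assumed not to use (odorant, pheromone and trace amine receptors and hair keratin-associated proteins). A gene above the floor on at least 1 array is called measured, and its value is that of its brightest probe. Where a gene passed the floor of 1 array alone, the fold is a bound, computed against the floor that it missed and given as "at least". All log2 ratios are fibers over epithelium, so a negative value means higher in epithelium. With 1 array per group there was no test and no spread between replicates. The SD of the log2 ratio between probes of 1 gene was 0.74, or 1.67-fold, over 472 genes with several probes above both floors. It serves below as a rough guide to error, though it cannot show the spread between arrays or samples. For the 32 reference probes above both floors, the SD of the log2 ratio was larger, 0.84.

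The labelled parts matched their defining markers. All 8 markers of lens fibers, among them Crybb1 and Mip, passed 2-fold toward fibers. Of 5 markers of lens epithelium, 4 passed 2-fold toward epithelium, and Foxe3 was below both floors. Of 39 markers of other cell types, 11 were measured, 25 were below both floors and 3 had no named probe. The summed intensity of the erythroid list (4 of 10 measured) was 3786 in epithelium and 2712 in fibers. That of periocular mesenchyme (1 of 8 measured) was 259.9 and 64.9, and that of retina (1 of 6 measured) was 1298 and 159.9. Hbb-bs, Tfap2b and Sfrp2 carried these sums, while Gata1, Twist1, Foxc1, Rax and Lhx2 were below both floors. Within the erythroid list, Hba-a1 and Hbb-y had positive log2 ratios of 0.78 and 0.03. Hbb-bt and Hbb-bs had negative ones of -2.14 and -0.49, and of these genes Hbb-bt alone passed 2-fold, toward epithelium. The sums of pigment cells (162.2 and 108.1) and macrophages (97.45 and 80.55), with 2 markers measured in each, were also larger in epithelium. That of endothelium (1 of 6 measured, Tek) was larger in fibers, 53.61 against 111.7. The part of these cells in the results below was not tested.

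Of the 40 genes, 16 were measured and 24 were below both floors. Over all genes the measured share was 34.1%. Of the 16, 7 (43.8%) passed 2-fold toward epithelium, against 18.3% of all 6490 measured genes. In fibers 0 of 16 were higher by that much, against 15.5%. The 7 were Cdk2, Ccne2, Rrm2, Rrm1, Cdc6, Rfc2 and Rfc4. In all, 13 of the 16 had negative log2 ratios, against 44.0% of all measured genes, and the exceptions were Rfc1, Rpa1 and Lig1. The sign of a bound is fixed by the array on which the gene was measured, so these counts describe the 16 genes and are not support for a direction of all 40. With no floor, values under 0 set to 0 and 50 added to each value before the logarithm, all 40 genes had a ratio. Then 7 of 40 (17.5%) passed 2-fold toward epithelium, against 5.01% of all 19057 genes, and 1, Lig1, passed it toward fibers, against 5.26%. The median log2 ratio was -0.92 over the 16 genes and 0.00 over all measured genes. Among the 8 genes above both floors, 3 passed 2-fold toward epithelium, against 17.3% of all 2980 genes of that kind. The median of the 8 was -0.89, beside -0.19 for those 2980. The epithelium array had 14 of the 40 genes above its floor (35.0%, against 21.7% of all genes), and the fibers array had 10 (25.0%, against 28.0%). With the epithelium floor applied to both arrays, the fibers array kept 6 of 40, against 22.2% of all genes. The count of 7 rests on the scaling, the floor and the probe: it was 13 of 16 with scaling to housekeeping genes, where the share of all measured genes also rose, to 37.2%. It was 4 of 7 measured (against 14.8% of all measured genes) with the floor at the 99th percentile, 3 of 10 (against 16%) with the second brightest probe and 4 of 12 (against 15.8%) with the mean of all probes. It was 5 under 1 of 6 other rules for the brightest probe, which read Cdc6 and Rfc4 through probes below both floors.

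**Figure D1:**
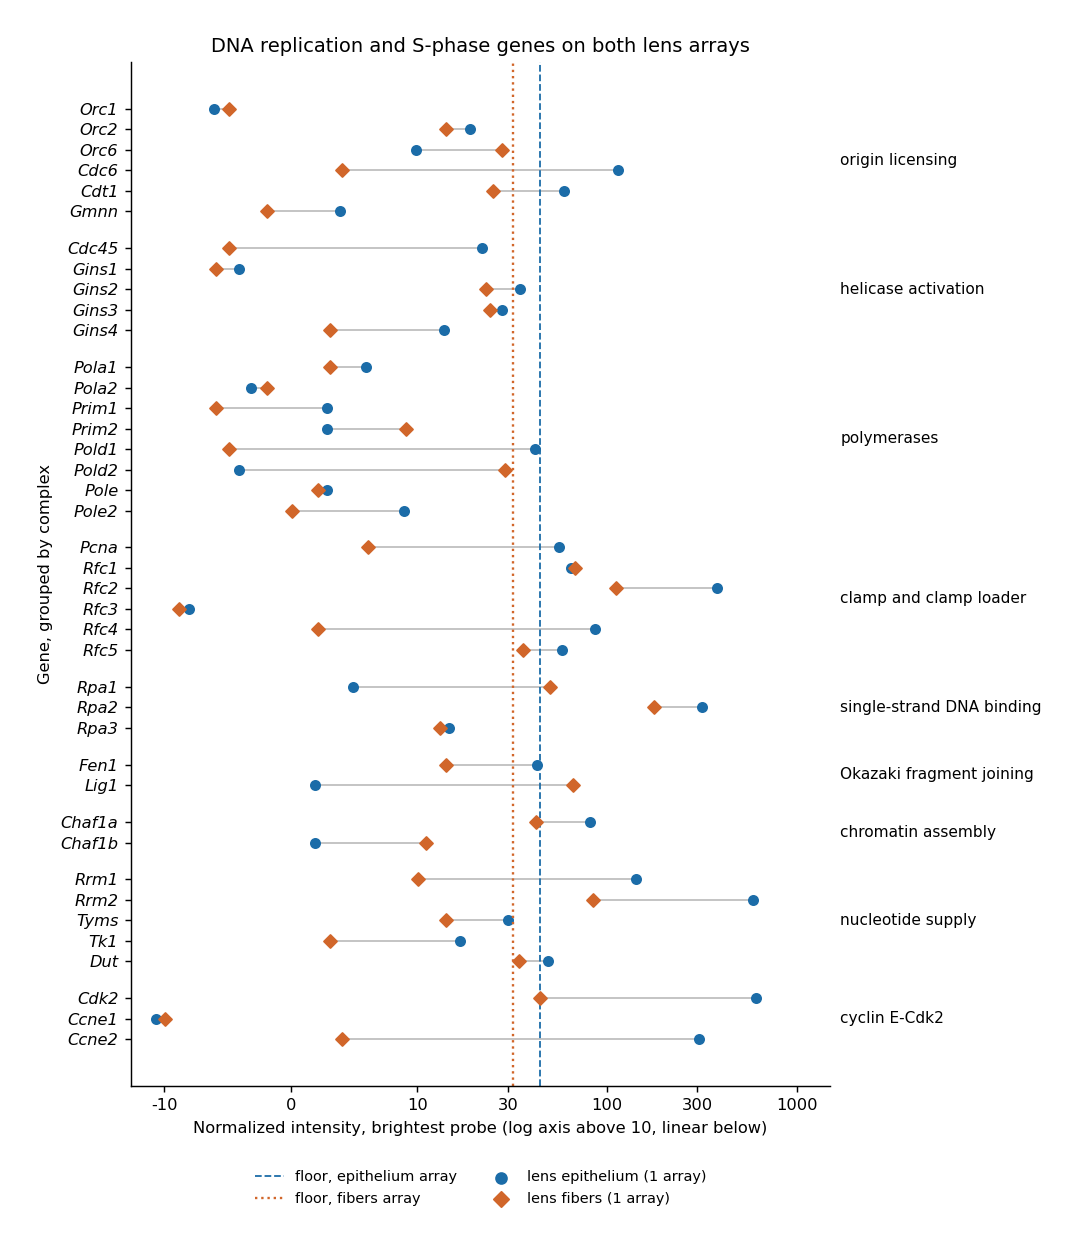
Normalized intensity of the brightest probe of each of the 40 genes in lens epithelium (circles) and lens fibers (diamonds), 1 array each, on an axis that is logarithmic above 10 and linear below, with the floor of each array as a vertical line. All 8 polymerase and primase genes and all 5 helicase activation genes lie below both floors, while Cdk2, Ccne2, Rrm2 and Rfc2 lie far above the floor in epithelium.

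Cyclin E binds and activates the kinase Cdk2 at the entry to S phase. Cdk2 read 609 in epithelium and 44.3 in fibers, 13.7-fold higher in epithelium. Of 2980 genes above both floors, 3 had a lower log2 ratio. The reading in fibers was close to the floor of 32.1, so the size of the ratio depends on the setting. The log2 ratio of -3.78 was -2.80 with no floor, -2.92 with the 99th percentile floor and -2.51 with the mean of all probes. The 13.7-fold value comes from 1 of 4 Cdk2 probes. A second probe read 122 and 72.0, 1.70-fold higher in epithelium, and the remaining probes were below both floors. Both measured Cdk2 probes were thus higher in epithelium, by amounts that differ by more than the SD between probes of a gene. Ccne2, cyclin E2, read 306 in epithelium and 4.07 in fibers, below the floor, at least 9.52-fold higher in epithelium. It has 1 probe. Ccne1, cyclin E1, was below both floors through its 1 probe, so of the pair of E cyclins Ccne2 alone was measured here.

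Nucleotide supply had 3 of 5 members measured, all with negative log2 ratios. Ribonucleotide reductase makes deoxyribonucleotides from ribonucleotides, with Rrm1 as its large and Rrm2 as its small subunit. Rrm2 read 590.0 against 84.5 in fibers, 6.98-fold higher in epithelium, and its second measured probe read 355 and 69.1, 5.13-fold higher. Rrm1 read 143 in epithelium and 10.1 in fibers, at least 4.44-fold higher, through a probe annotated to a cDNA clone. Its 2 RefSeq probes read 79.3 and 56.8 in epithelium and were below the floor in fibers, with bounds of 2.47-fold and 1.77-fold, so all 3 Rrm1 probes were above the floor on the epithelium array alone. Dut, the dUTPase that keeps uracil out of DNA, read 48.8 and 34.2, just above each floor, with a log2 ratio of -0.51, inside the SD between probes. Tyms, thymidylate synthase, read at most 29.95 in epithelium over 5 probes, and Tk1, the thymidine kinase of the salvage pathway, at most 16.9 over 4 probes. Both stayed below the floors, so the higher epithelium values of this group are those of the reductase, and the thymidylate enzymes have no ratio.

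**Figure D2:**
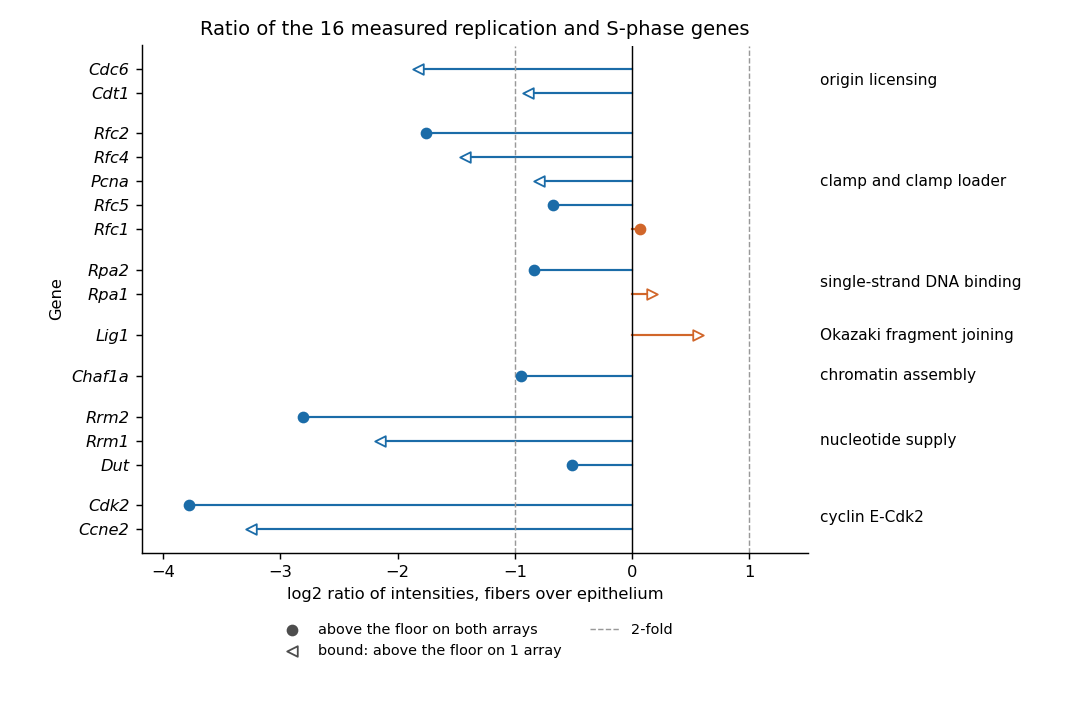
Log2 ratio of fibers over epithelium for the 16 measured genes, ordered by complex. Filled circles are ratios of genes above the floor on both arrays, open triangles are bounds, and dashed lines mark 2-fold. Values run from -3.78 for Cdk2 to 0.56 for Lig1, and no gene reaches 2-fold higher in fibers.

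Origin licensing had 2 of 6 members measured, both on the epithelium array alone. Cdc6, the loader of the MCM helicase, read 114 in epithelium and 4.07 in fibers, at least 3.55-fold higher in epithelium. This is the value of 1 of 4 Cdc6 probes, and the others were below both floors. Cdt1, the partner of Cdc6 in loading, read 59.5 in epithelium and 25.1 in fibers, at least 1.85-fold higher. A gene above the epithelium floor alone needed 64.3 to reach a 2-fold bound, so the bound of Cdt1 could not have passed 2-fold at its level. The origin recognition subunits Orc1, Orc2 and Orc6 and Gmnn, geminin, which binds Cdt1 and blocks it, stayed below both floors. Orc6 read 9.92 in epithelium and 28.1 in fibers, under the floor of 32.1.

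The clamp and its loader had 5 of 6 members measured. Pcna, the sliding clamp, read 55.8 in epithelium and 6.08 in fibers, at least 1.74-fold higher in epithelium, again too dim for a 2-fold bound. The loader is a complex of a large subunit, Rfc1, and 4 small ones. Rfc4 read 86.5 in epithelium and 2.11 in fibers, at least 2.69-fold higher, with its other probe below both floors. Rfc5 read 57.7 and 36.2, a log2 ratio of -0.67, and Rfc1 read 64.9 and 68.1, a log2 ratio of 0.07. Both lie inside the SD between probes of a gene, so no difference is read from them. Rfc3 was below both floors.

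Rfc2 is the gene whose probes disagree. Its brightest probe read 380 in epithelium and 112 in fibers, 3.39-fold higher in epithelium. A second probe read 19.99 in epithelium and 108 in fibers, a bound of 2.43-fold toward fibers. The third read 5.92 and 66.0, a bound of 1.48-fold in the same direction. All 4 Rfc2 probes carry a RefSeq annotation, and the last was below both floors. The higher epithelium value of Rfc2 thus rests on 1 probe, and it is the sole gene of the 16 with measured probes in both directions. Across all 76 probes, 22 were measured, 9 passed 2-fold toward epithelium, and 1, the second Rfc2 probe, toward fibers. Rrm1 and Rrm2 each entered the 9 through more than 1 probe. The share over all probes of the arrays was not computed, so these counts show no excess in either direction. Of the 4 genes with several measured probes, Cdk2 and Rrm2 kept their direction over 2 probes each, all above both floors. The 3 Rrm1 probes were all bounds above the epithelium floor alone, which fixes their sign. A further 6 genes with several probes were measured through 1 of them, namely Cdc6, Dut, Lig1, Rfc4, Rfc5 and Rpa2.

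**Figure D3:**
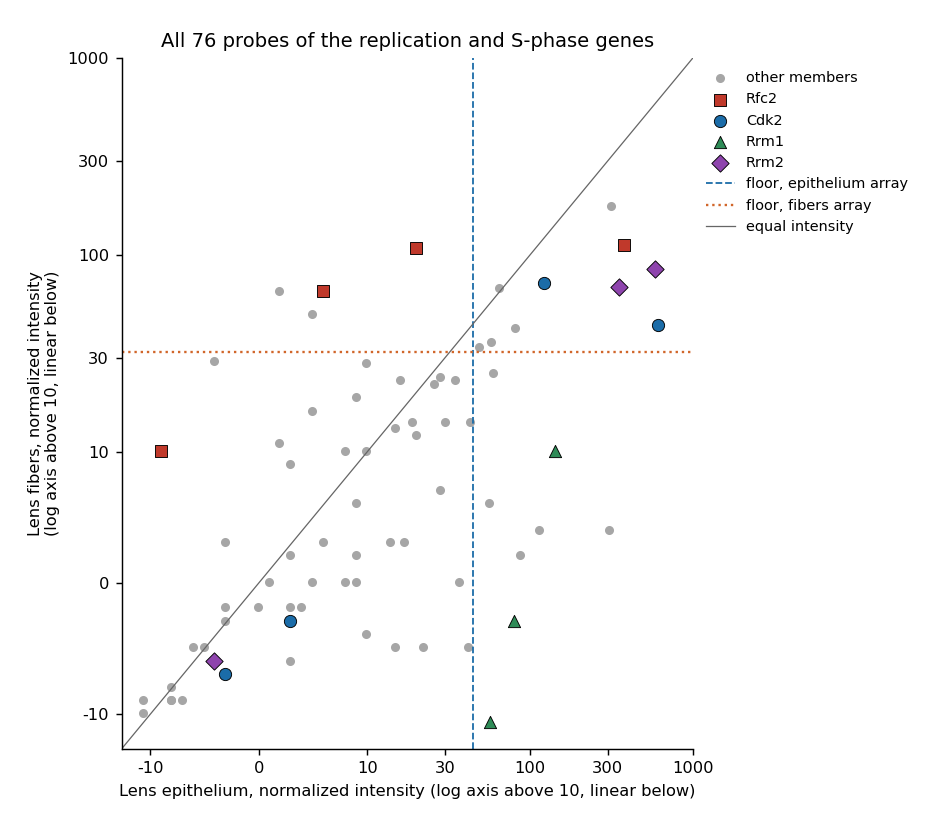
Normalized intensity of all 76 probes of the 40 genes, epithelium on the horizontal axis and fibers on the vertical axis, both logarithmic above 10 and linear below, with the floors as dashed and dotted lines and the line of equal intensity. The measured probes of Cdk2, Rrm1 and Rrm2 lie below the line of equal intensity, and those of Rfc2 lie on both sides of it.

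The single-strand DNA binding complex RPA coats unwound DNA. Rpa2 read 316 in epithelium and 177 in fibers, 1.79-fold higher in epithelium, through a probe annotated to a cDNA clone and not to a RefSeq transcript. Its 2 other probes were below both floors. Rpa1 read 4.93 in epithelium and 50.3 in fibers, at least 1.13-fold higher in fibers. Rpa3 was below both floors. Neither measured subunit reached 2-fold. The bound of Rpa1, a log2 ratio of 0.17, lies inside the SD between probes, and its sign is fixed by the array that measured it. No opposite direction of the 2 subunits is read from it.

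In the joining of Okazaki fragments, the flap nuclease Fen1 read 42.7 in epithelium, just under the floor, and 14.2 in fibers. Lig1, the ligase that seals the fragments, read 1.90 in epithelium and 66.0 in fibers, at least 1.48-fold higher in fibers. Its 3 other probes were below both floors. Rpa1 and Lig1 were the 2 members above the floor on the fibers array alone. A gene of that kind needed 89.2 for a 2-fold bound. Under the scaling to housekeeping genes neither Rpa1 nor Lig1 had a direction, and no measured member was higher in fibers. Chaf1a is the large subunit of the chromatin assembly factor CAF-1, which places histones on new DNA. It read 81.5 and 42.4, 1.92-fold higher in epithelium. Of the members above both floors that did not reach 2-fold, Chaf1a was the closest to it, and bounds cannot be ranked with these ratios. Chaf1b, a second CAF-1 subunit, was below both floors.

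The polymerases and the helicase activators gave no ratio. All 8 genes of DNA polymerase alpha and primase (Pola1, Pola2, Prim1, Prim2), delta (Pold1, Pold2) and epsilon (Pole, Pole2) were below both floors. Among them, Pold1, the catalytic subunit of polymerase delta, read 41.6 in epithelium, just under the floor, and -4.91 in fibers. Its partner Pold2 read -4.09 and 29.1, just under the fibers floor. The remaining polymerase genes read 9.08 or less on both arrays. Cdc45 and the GINS subunits Gins1, Gins2, Gins3 and Gins4, which complete the active helicase, were below both floors as well, with at most 34.8 (Gins2) in epithelium and 24.1 (Gins3) in fibers. A reading below the floor means only that these probes did not rise above the silent probes, and no presence or absence of the transcripts follows from it.

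Of the 6 MCM subunits that these factors load and activate, 5 were measured and Mcm3 was below both floors. Of the 5, 4 passed 2-fold toward epithelium, against 18.3% of all measured genes. Mcm4, above both floors, was 11.02-fold higher there. The others were above the epithelium floor alone, which fixes their sign, with bounds from 1.42-fold for Mcm7 to 24.9-fold for Mcm5.

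Beside these genes, 68 other replication and S-phase genes with a named probe were examined, of which 37 were measured and 31 were below both floors. Of the 37, 9 passed 2-fold toward epithelium and 2 toward fibers, with a median log2 ratio of -0.51. The shares, 24.3% and 5.41%, compare with 18.3% and 15.5% of all measured genes. Scaled to housekeeping genes, 20 were higher in epithelium and 1 in fibers, but all measured genes then moved as well, to 37.2% and 6.43%. Toward epithelium, 3 of 16 passed 2-fold with the 99th percentile floor (against 14.8%) and 5 of 30 with the mean of all probes (against 15.8%). With the epithelium floor applied to both arrays, 6 of 35 did (against 15.8%). Little excess toward epithelium is left under these settings.

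In nucleotide supply, 3 of 9 measured genes of that list (33.3%, against 18.3% of all measured genes) passed 2-fold toward epithelium and 0 toward fibers. Of the 9, 4 had negative and 5 positive log2 ratios, with a median of 0.08. Dtymk, thymidylate kinase, which acts on the product of Tyms and Tk1, read 178 and 53.3, 3.34-fold higher in epithelium. Ctps, a CTP synthase, read 85.5 and 34.2, 2.50-fold higher, and Samhd1, which breaks down deoxyribonucleotides, read 103 and 41.3, 2.49-fold higher. The calls of Ctps and Samhd1 depended on the setting. Their log2 ratios were -0.69 and -0.74 with no floor, and -0.73 and -0.80 with the mean of all probes, under 2-fold. Rrm2b, the reductase subunit that cells use outside S phase, went the other way from Rrm2. It read 28.9 in epithelium and 83.4 in fibers, a bound of 1.87-fold, under 2-fold. Dck, the deoxycytidine kinase of the salvage pathway, read 80.5 in fibers and was below the floor in epithelium, a bound of 1.80-fold.

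Of 22 genes of E2F and S-phase control in that list, 13 were measured and 9 were below both floors. Of the 13, 3 passed 2-fold toward epithelium (23.1%, against 18.3% of all measured genes). Toward fibers, 2 did (15.4%, against 15.5%), and the median log2 ratio was -0.20. Among the E2F factors and their partners, E2f1, an activator of S-phase genes, read 78.2 in epithelium and 29.1 in fibers, at least 2.43-fold higher in epithelium. E2f6, a repressor of the family, read 231 and 93.9, 2.46-fold higher. Tfdp2, a dimer partner of E2F factors, read 185 and 17.1, at least 5.77-fold higher, and Tfdp1, the other partner, read 563 and 309, 1.82-fold higher. E2f2, E2f3 and E2f4 had log2 ratios of 0.15, -0.20 and -0.13, inside the SD between probes, and E2f5 had no direction. Over all 37 measured genes outside the module and the MCM subunits, 12 had positive log2 ratios and 2 of them passed 2-fold toward fibers. Cul4a, the scaffold of a ubiquitin ligase that degrades Cdt1, read 49.8 in epithelium and 192 in fibers, 3.85-fold higher in fibers, and with its second brightest probe the log2 ratio was 0.89. Cdkn1c, the inhibitor p57 of cyclin-dependent kinases, read 391.9 and 972, 2.48-fold higher in fibers. Both calls depended on the setting. The log2 ratio of Cdkn1c was 0.73 with scaling to housekeeping genes. That of Cul4a was 0.79 with the 99th percentile floor and 0.70 with the mean of all probes. The calls of E2f1 and E2f6 toward epithelium also depended on the setting. The log2 ratio of E2f1 was -0.81 with the epithelium floor applied to both arrays and -0.70 with no floor. That of E2f6 was -0.96 with no floor and -0.75 with the mean of all probes. Cdkn1b, the inhibitor p27, read 142 and 97.1, with a log2 ratio of -0.54.

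The remaining genes of the list at 2-fold or more had bounds in favour of epithelium. Rbbp4, a histone-binding protein that is also a subunit of CAF-1, was at least 3.35-fold higher. Recql4, a helicase that acts in the start of replication, was at least 2.81-fold higher, and Chtf18, of an alternative clamp loader, at least 2.43-fold. For Rbbp4 and Recql4 the second brightest probe pointed to fibers, with log2 ratios of 0.16 and 0.23. With the mean of all probes their log2 ratios were -0.54 and -0.90, under 2-fold. The log2 ratio of Chtf18 was -0.81 with the epithelium floor applied to both arrays.

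**Figure D4:**
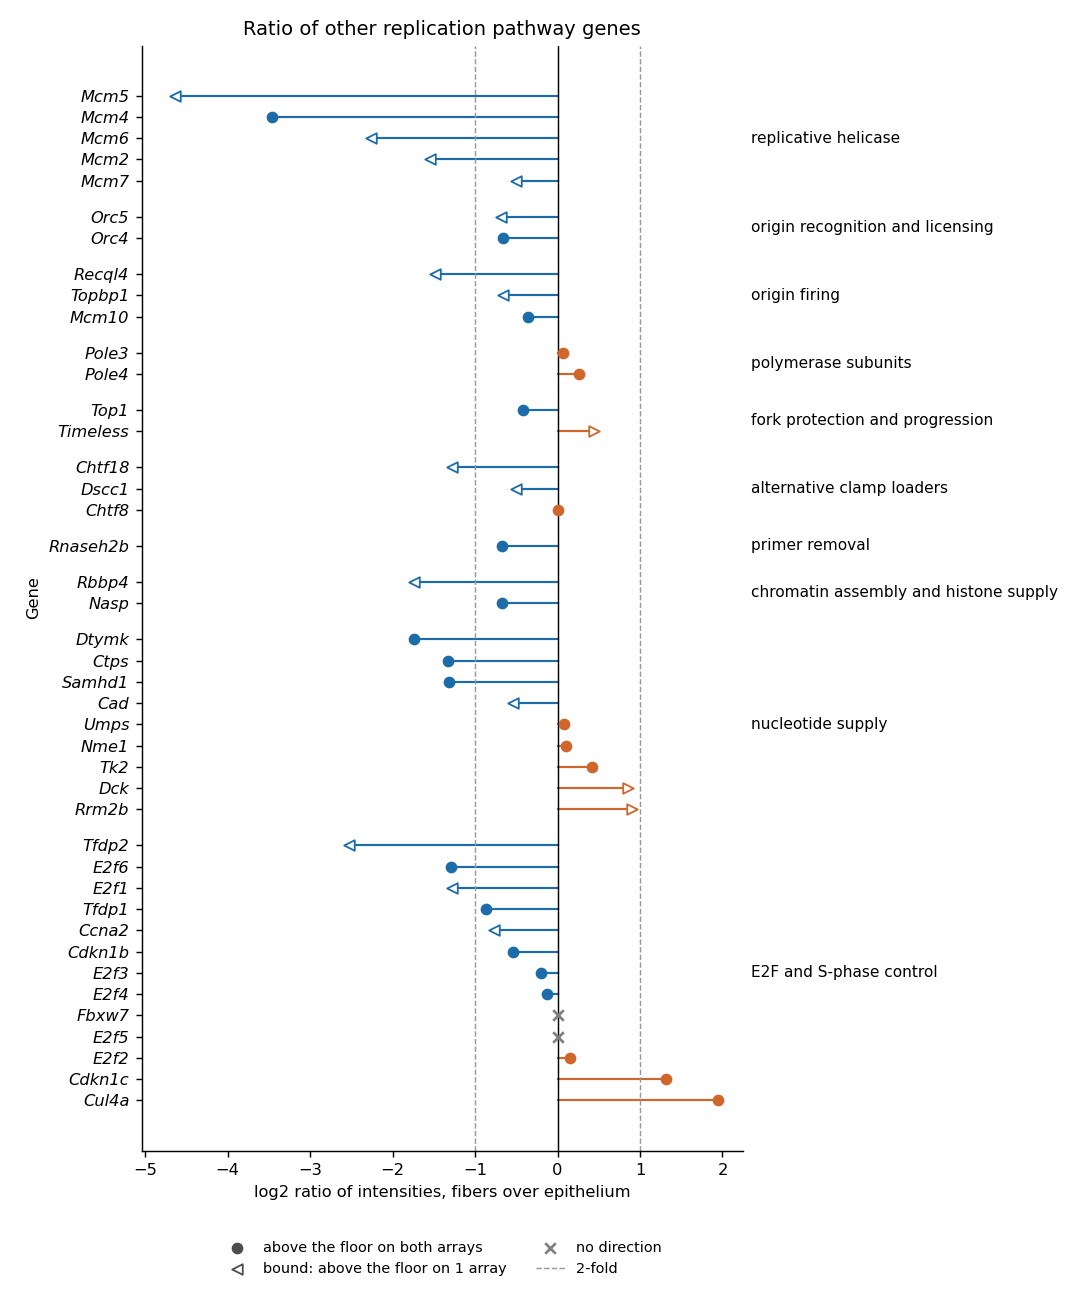
Log2 ratio of fibers over epithelium for 5 measured MCM genes and 37 other measured genes of replication and S phase, grouped by role. Filled circles are genes above both floors, open triangles are bounds, crosses are genes with no direction, and dashed lines mark 2-fold. Mcm5, Mcm4 and Tfdp2 stand furthest toward epithelium, and Cul4a and Cdkn1c alone pass 2-fold toward fibers.

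The promoters of the genes higher in epithelium by 2-fold or more are shown because E2F factors are known to act on such genes through short DNA motifs near the transcription start. Sequences are from RefSeq on build GRCm38.p6, 5′ to 3′ on the strand of the gene, from 150 bases before the start to 20 after it. Capitals mark the motif TTTCCCGC or its shorter form TTCCCGC, read on either strand. A window was at hand for 5 of the 7 genes, and Ccne2 and Rfc2 are named only. Cdc6 lies at chr11:98908001-98908170 (plus strand), Cdk2 at chr10:128705032-128705201 (minus), Rrm1 at chr7:102441545-102441714 (plus), Rrm2 at chr12:24708104-24708273 (plus) and Rfc4 at chr16:23127711-23127880 (minus).
Cdc6: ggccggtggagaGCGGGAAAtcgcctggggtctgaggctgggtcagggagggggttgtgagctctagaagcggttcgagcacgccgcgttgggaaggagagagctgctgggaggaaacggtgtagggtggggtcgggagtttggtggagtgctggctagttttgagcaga
Cdk2: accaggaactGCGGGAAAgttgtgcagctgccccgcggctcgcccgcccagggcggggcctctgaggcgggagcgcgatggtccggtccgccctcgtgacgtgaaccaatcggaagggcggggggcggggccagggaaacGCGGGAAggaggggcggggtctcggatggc
Rrm1: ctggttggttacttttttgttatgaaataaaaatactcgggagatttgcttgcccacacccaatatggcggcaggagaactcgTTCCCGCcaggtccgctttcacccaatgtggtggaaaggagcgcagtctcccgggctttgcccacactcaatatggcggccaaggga
Rrm2: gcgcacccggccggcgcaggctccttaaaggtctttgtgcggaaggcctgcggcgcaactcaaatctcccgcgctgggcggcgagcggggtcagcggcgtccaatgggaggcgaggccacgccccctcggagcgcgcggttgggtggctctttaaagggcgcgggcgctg
Rfc4: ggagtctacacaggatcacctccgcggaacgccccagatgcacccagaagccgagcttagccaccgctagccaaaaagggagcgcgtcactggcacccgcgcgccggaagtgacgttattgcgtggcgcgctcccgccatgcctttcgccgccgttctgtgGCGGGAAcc

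In the promoter of Cdc6, whose 1 measured probe read 114 against 4.07, the match began 138 bases before the start, and in that of Cdk2, with 609 against 44.3, it began 140 bases before the start, with a shorter match 10 bases before it. The shorter form began 67 bases before the start of Rrm1 and 12 bases into the transcript of Rfc4. Rrm2, 6.98-fold higher in epithelium, held neither form in this window. Over windows of 300 bases, from 250 before to 50 after the start, 32 of the 40 genes had 37 windows. The 4 spellings TTTCCCGC, TTTCGCGC, TTTGCCGC and TTTGGCGC, on both strands, were found in 10 of the 37 (27.0%) and in 744 of all 32851 windows (2.26%). TTCCCGC, which overlaps the first spelling, was found in 13 of the 37 (35.1%) and in 4.6% of all windows. CCAAT, the letters bound by NF-Y, was in 19 (51.4%, against 37.4%), GGGCGG, a GC box, in 25 (67.6%, against 35.7%), and TTTGAA, an element of genes used late in the cycle, in 4 (10.8%, against 17.9%). The 4 spellings stood in 2 of the 5 genes higher in epithelium by 2-fold or more, in 2 of 9 measured genes that did not reach 2-fold, and in 6 of 18 genes below both floors. TTCCCGC stood in 4 of the 5, in 3 of the 9 and in 6 of the 18. The motifs were chosen with the windows in view, after other E2F-like spellings, not reported here, had been looked at in the same windows, so their shares are not independent evidence of enrichment. A match is a description of letters and not a bound site.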

How the data were processed

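Total RNA of lens epithelium and of lens fibers at E12.5 was biotin-labelled for Illumina arrays, per the labels' protocols, with 1 array each. The authors deposited 1 linear intensity per probe for 45281 probes, as whole numbers from -16 upward, and 38.0% (epithelium) and 38.7% (fibers) were at or below 0. A background had therefore been subtracted. The sources used here do not give its method or any scaling.

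Quantile normalization was applied to the linear values, which hides any difference in total RNA. Probes were named through the platform annotation (34885 with 1 symbol, 18 with several, 10378 with none). The floor was the 95th percentile of 1580 probes of 1308 genes taken to be silent. The brightest probe of a gene had the highest mean log2 intensity over both arrays, with values under the floor set to it. This rule and the averaging of tied ranks in the normalization were chosen among several versions because they gave the same counts over all genes as an earlier analysis of these data, so that match is no independent check. The 6 other probe rules tried are given with the alternatives below. A gene past 1 floor alone whose bound was under 1 had no direction and entered medians as a log2 ratio of 0. The calculation was tested on simulated data. Python 3.11.15, numpy 2.4.6, pandas 2.3.3 and statsmodels 0.14.6 were used.

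With 1 array per group there were no tests, p-values or SDs over replicates, and precision is limited by the number of arrays. No slide or batch information was used here. A difference of 2-fold was the threshold for counts. All 40 genes were described, and of the other listed genes those at 2-fold or more, with some neighbours of the same family chosen after their values were seen. The genes and lists were chosen with earlier results of these data known. In all, 8 alternatives were tried for the scaling, the floor and the probe, and the 6 other probe rules were added after seeing the data.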

Additional observations from a re-analysis of the deposited data

How the results depend on the processing

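The count of 7 genes higher in epithelium by 2-fold or more was 13 with the arrays scaled to housekeeping genes, 4 with the 99th percentile floor, 4 with the mean of all probes and 3 with the second brightest probe. It was 6 or 7 under the other alternatives (values as deposited, loess, the higher floor for both arrays and no floor). The count higher in fibers was 0 except for 1 with no floor and 1 with the second brightest probe. The median log2 ratio was -1.76 over the 7 genes measured with the 99th percentile floor, was -1.56 with housekeeping scaling and stayed between -0.93 and -0.22 elsewhere. Toward epithelium, the count of 9 of 37 other listed genes was 20 of 37 with housekeeping scaling, against 37.2% of all measured genes. It was 3 of 16 with the 99th percentile floor (against 14.8%) and 5 of 30 with the mean of all probes (against 15.8%). With the higher floor for both arrays it was 6 of 35 (against 15.8%). The counts with these floors and the mean of all probes leave little excess toward epithelium. The count was 6 of 68 with no floor (against 5.01%) and 7 of 24 with the second brightest probe (share given above). Toward fibers, 2 became 1 with housekeeping scaling, the 99th percentile floor and the mean of all probes, and 3 with no floor. Housekeeping scaling divided the fibers array by 1.55 and moved the median of all measured genes from 0.00 to -0.28, so 14 of 16 genes were then negative and none positive. Under the first 8 alternatives Ccne2 and Rrm2 kept a 2-fold difference in 8, Cdk2 and Rrm1 in 7, Rfc2 in 6, Cdc6 in 5 and Rfc4 in 4. Ccne2 has 1 probe, so the alternatives of probe could not change it. With the second brightest probe the log2 ratios of Rfc2, Rbbp4 and Recql4 turned to 1.28, 0.16 and 0.23. The cause of these changes was not tested, except that the stricter floor and the probe settings leave fewer genes measured (7, 10 and 12 of 40). Of 225 values of single genes under these 8 alternatives, 201 moved by less than the SD between probes of a gene. This share is no measure of stability. Housekeeping scaling shifted log2 ratios by 0.64, under that SD, and genes with 1 probe could not change with the probe settings. Genes that fell below both floors under an alternative were left out of the 225. Under the 6 other rules for the probe, chosen after seeing the data, the count of 7 was 7 in all but 1. By the mean log2 intensity with values under 1 set to 1 it was 5, since Cdc6 and Rfc4 were then read through probes below both floors, and Recql4 and Rbbp4 turned to 0.23 and 0.16. Of 190 values of single genes under these rules, 187 moved by less than the SD between probes, again without genes that fell below both floors. No paired analysis was possible because each group has 1 array, and no array could be left out. Low signal over background left 24 of 40 genes with no ratio and 8 of 16 ratios as bounds.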
